A study of Mus musculus with 12 samples.

Results

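Gene expression was examined in type II alveolar epithelial cells of mouse lung that carried a knockout of Gna11 alone (Gna11 ko, 3 arrays), set against 3 other knockout groups of the same series. The 3 Gna11 ko arrays were chosen by their genotype label, out of 12 arrays in all. The other 9 arrays were 3 of Gnaq/Ga11 ko cells, which lack Gnaq and Gna11, 3 of Gna12 ko cells and 3 of Gna12/Ga13 ko cells, which lack Gna12 and Gna13. Every group lacked at least 1 G protein alpha subunit gene and no wild type arrays were analysed here, and Gna11 was also missing from the Gnaq/Ga11 ko cells, so a difference of the Gna11 ko arrays is no measure of the loss of Gna11. All cells were kept for 7 days on collagen with keratinocyte growth factor and without hydrocortisone, and the labels give 10 ng of total RNA as the input to amplification. The labels give no age, strain, promoter or Cre driver for the knockouts, nor any word on separate animals or separate cultures behind the 3 samples of each group. The p-values therefore measure only the spread among these 12 samples, part of which may be technical.

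G alpha 11, the product of Gna11, and its close relative G alpha q relay signals from receptors at the cell surface to phospholipase C beta, which raises calcium and activates protein kinase C. G alpha 12 and G alpha 13 relay signals mainly to the actin cytoskeleton. Type II cells make lung surfactant and are the progenitors of the flat type I cells of the alveolus, and preparations of them from lung can carry macrophages and other leukocytes along.

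The values are log2 RMA expression values per probe set, and the number of arrays limits their precision. Array medians ran over 5.032 to 5.11. Within groups, replicates 1 and 2 of the Gna11 ko correlated least, at 0.963. On the first principal component, with 27.7% of the variance, the 3 Gna11 ko and 3 Gnaq/Ga11 ko arrays had negative scores and the 6 others positive ones. On the second, with 18.6%, replicate 2 of the Gna11 ko had the highest score, 50.9, and it also had the lowest array quality weight, 0.489. Eif2s3y, a gene of the Y chromosome, read 7.11, 3.56 and 7.00 in replicates 1, 2 and 3 of the Gna11 ko, and it was as low as in replicate 2 in replicate 2 of the Gna12 ko and Gna12/Ga13 ko and in all 3 Gnaq/Ga11 ko arrays. A position code in the labels, of unstated meaning, has 02 for the Gna11 ko and Gnaq/Ga11 ko arrays, and its letters B to D are shared by the Gna11 ko and Gna12 ko arrays. Within the shared 02 the Gna11 ko is set against the Gnaq/Ga11 ko alone and within the shared letters against the Gna12 ko alone, and 335 and 513 genes were called in those comparisons, which use the same 3 Gna11 ko arrays.

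The alveolar identity of the Gna11 ko cells was checked against marker genes. Sftpc, a surfactant protein of type II cells, read 13.38, 13.37 and 13.35 in the Gna11 ko arrays, just above the 12.78 to 13.30 of the 9 others, and its difference of 0.22 did not pass. Sftpd, another surfactant protein gene, read 13.30 to 13.34 in the Gna11 ko arrays, within the 13.28 to 13.46 of the others. Ager, a gene highest in type I cells, read 13.39 to 13.51 against 13.18 to 13.47. None of 14 type II, 15 type I and 16 general epithelial markers was called, and their median differences were 0.11, 0.10 and 0.11, beside 0.05 over all genes. The type II median was -0.24 against the Gnaq/Ga11 ko alone and 0.29 against the Gna12/Ga13 ko alone, and the type I median was 0.66 without replicate 2 of the Gna11 ko. The type I markers did not stand at 1 level within the group: their mean was 9.84 and 9.95 in replicates 1 and 3 and 8.40 in replicate 2, below the 8.59 to 9.96 of the 9 other arrays. The dip was not particular to the Gna11 ko. Replicate 2 was also the lowest of its group in the Gna12 ko and Gna12/Ga13 ko, at 8.59 and 8.60. Replicate 2 of the Gna11 ko was also low for the 15 endothelial markers, at 6.84 against 7.83 and 7.79 in replicates 1 and 3, and the 9 other arrays spread over 6.78 to 8.42.

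Gna11 had 2 probe sets. The first read 7.83, 6.88 and 6.86 in the Gna11 ko arrays and 7.31, 7.06 and 7.39 in the Gnaq/Ga11 ko arrays, which lack the gene too, against 7.98 to 8.57 in the 6 arrays of the Gna12 ko and Gna12/Ga13 ko. All 6 arrays without the gene thus lay below the 6 with it, and replicate 1 of the Gna11 ko was the nearest to them. The second probe set, which represents the gene in the fit although both had a mean of 7.78, read 7.57, 9.66 and 7.82 in the Gna11 ko arrays against 6.86 to 8.29 in the others. Its difference of 0.76 ± 0.433 (SE, adjusted p = 0.316) did not pass, and replicate 2 lay above every other array. The sources used here do not place these probe sets inside or outside the deleted part, so neither checks the label. Gnaq, Gna12 and Gna13 had differences of 0.02, -0.12 and -0.03, none of which passed.

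To find where the Gna11 ko cells stood apart, each gene's mean in the Gna11 ko arrays was compared with the mean of the other 3 group means, with limma. Genes of macrophages, antigen presentation, chemokines and proteases were among the falls, such as Aif1, H2-DMa, Ccl22 and Ctsk. The rises included the kallikreins Klk1b27 and Klk1, the granzymes Gzmc and Gzmb and the prostaglandin receptor Ptgfr. Of 18193 genes, 728 (4.0%) were called at an adjusted p under 0.05. Among them 274 (1.51%) were higher and 454 (2.50%) lower in the Gna11 ko. The falls were the larger changes: their median was -1.03 on the log2 scale and 241 were at least 2-fold, while the median rise was 0.69 and 67 were at least 2-fold. Without adjustment, 4152 genes had a p under 0.05. The count rests on single arrays: it was 159 without replicate 1 of the Gna11 ko and 181 without replicate 2, and 932 without replicate 3. It was 446 and 354 without replicate 1 or 2 of the Gna12 ko, 453 and 381 without replicate 2 or 3 of the Gnaq/Ga11 ko, and 308 and 429 without replicate 2 or 3 of the Gna12/Ga13 ko. Of the 96 called genes named by rule, 28 were called whichever array was left out, and 10 in at most 2 of the 12 such fits, namely C1qc, Cma1, Dzank1, Edem1, Gclc, Jchain, Mmp19, Nlrc5, Tgfbi and Vim.

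**Figure D1:**
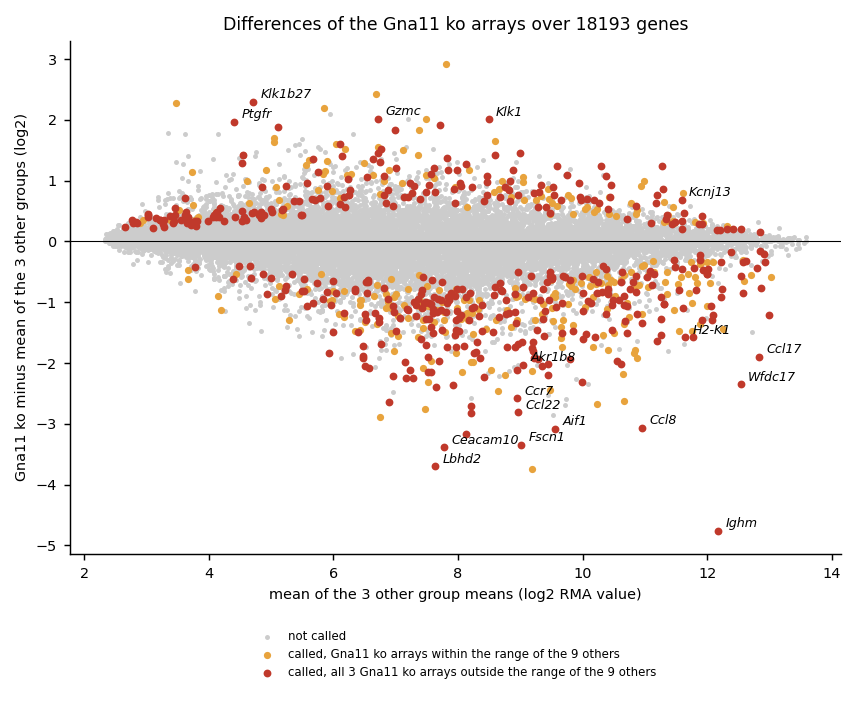
Each point is 1 of 18193 genes, with the mean of the 3 other group means on the x axis (log2 RMA value) and the Gna11 ko mean minus that mean on the y axis (log2). Grey genes were not called, orange genes were called with at least 1 Gna11 ko array inside the range of the 9 others, and red genes were called with all 3 outside it. The falls reach -4.76 for Ighm, and among the labelled rises Klk1b27 is the highest at 2.30.

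The 3 Gna11 ko arrays lay outside the range of all 9 others for 970 genes (5.33%), above it for 540 (2.97%) and below it for 430 (2.36%). Both conditions, a call and no overlap, were met by 447 genes (2.46%), of which 178 (0.978%) were above and 269 (1.48%) below. Of the called rises 14.6% carried a clone or predicted name, against 1.76% of the called falls and 10.3% of all genes. Of the probe sets that the annotation ties to no gene or to several, 3.01% lay above and 0.971% below all 9 other arrays, against 2.72% and 2.07% of the probe sets with 1 gene. Of 240 further probe sets of genes called higher 76.7% had a positive difference, against 57.8% of all further probe sets, and of 496 of genes called lower 66.5% had a negative one, against 42.2%. Far fewer passed in the same direction in a fit of every probe set, 13 of the 240 and 64 of the 496.

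A stricter question is whether the Gna11 ko differed from each of the other groups and not only from their mean. This was tested with the largest of the 3 pairwise p-values per gene, and 11 genes (0.0605%) passed, 1 higher (0.00550%) and 10 lower (0.0550%) in the Gna11 ko. Chemokine and antigen presentation genes were among the 10. They were Ccl17, Ccl22, Ccr7, H2-K1, Wfdc17, Akr1b8, Basp1, Ceacam10, Lbhd2 and AA467197, the last a clone name whose values are not described here. Without adjustment, 851 genes passed that test at 0.05. The count was 6 without replicate 1 of the Gna11 ko and 21 without its replicate 3, and it ran from 1 to 25 as single arrays were left out, with 1 without replicate 1 or 2 of the Gna12 ko and 25 without replicate 1 of the Gna12/Ga13 ko. It was 3 without replicate 3 of the Gna12 ko or any 1 of the Gnaq/Ga11 ko arrays, and 4 without replicate 2 or 3 of the Gna12/Ga13 ko.

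Ccl17 and Ccl22 encode the ligands of Ccr4, a chemokine receptor of T helper type 2 and regulatory T cells, and are made by dendritic cells and alternatively activated macrophages. Ccl17 read 10.64, 10.91 and 11.25 in the Gna11 ko arrays, against 13.19, 13.11 and 13.18 in the Gnaq/Ga11 ko, 12.74, 12.72 and 12.67 in the Gna12 ko and 12.42, 12.49 and 13.00 in the Gna12/Ga13 ko. Every Gna11 ko array lay more than 1 log2 unit below every other array, and the difference of -1.90 ± 0.129 (SE) had the smallest adjusted p of all genes, 0.000206, and 0.00553 in the test against each group. Ccl22 read 5.83, 6.35 and 6.28 against 8.41 to 9.48 in the 9 others, with the lowest of these in replicate 1 of the Gna12/Ga13 ko. Its difference was -2.81 ± 0.246 (SE, 7.01-fold lower, adjusted p = 0.000529). Ccr7, the receptor that guides mature dendritic cells to lymph nodes, read 5.79, 6.46 and 6.87 against 8.20 to 9.82 (difference -2.58 ± 0.262, adjusted p = 0.00122). The groups of these 3 genes did not overlap, and the Gnaq/Ga11 ko arrays were the highest for Ccl17 and Ccr7.

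H2-K1, a heavy chain of the class I molecules that show peptides to cytotoxic T cells, read 9.59, 10.09 and 10.51 in the Gna11 ko arrays against 11.39 to 11.86 in the 9 others. Its difference was -1.58 ± 0.152 (SE, adjusted p = 0.00108). Class I genes have near-identical copies and this probe set is of a kind that can take up related transcripts, so the reading is uncertain as to the gene. Of its 3 further probe sets, 1 had a like difference of -1.65, and the others were at -0.95 and 0.01. Wfdc17, a small secreted protein of activated macrophages, read 10.23, 9.68 and 10.67 against 11.54 to 12.97 (difference -2.35 ± 0.256, adjusted p = 0.00196). Akr1b8, an aldo-keto reductase, read 7.07, 6.90 and 7.10 against 8.45 to 9.95, highest in the Gna12/Ga13 ko (difference -2.03 ± 0.179, adjusted p = 0.000529). Basp1, a membrane protein bound to phosphoinositides, read 9.65, 9.58 and 9.61, the tightest of these groups, against 10.45 to 11.18 (difference -1.34 ± 0.143, adjusted p = 0.00172).

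Lbhd2 and Ceacam10 were at low levels in the Gna11 ko, where a difference may understate the change. Lbhd2 read 3.91, 4.34 and 3.56, below the median level of 5.101 over probe sets, against 6.97 to 9.35 in the 9 others (difference -3.70 ± 0.363, adjusted p = 0.00122). Ceacam10, of the carcinoembryonic antigen family of adhesion proteins, read 5.03, 4.26 and 3.87 against 6.35 to 8.67 (difference -3.39 ± 0.293, adjusted p = 0.000529). A second Ceacam10 probe set had a difference of -1.87, and the third, at a mean of 3.28, one of 0.08. The single gene that was higher than in each group was Kcnj13, an inwardly rectifying potassium channel. It read 12.38, 12.26 and 12.21 in the Gna11 ko against 11.42 to 11.73 in the 9 others, a difference of 0.69 ± 0.0692 (SE, adjusted p = 0.00122, and 0.0452 against each group).

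**Figure D2:**
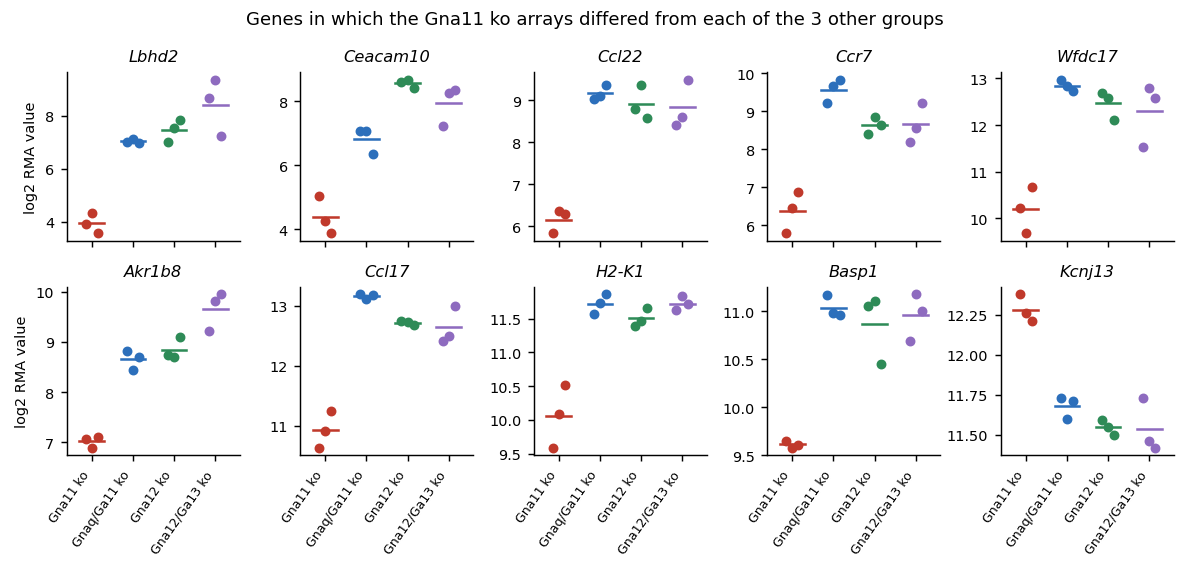
Points are single arrays (log2 RMA value on the y axis, with a scale of its own for each gene), bars are group means, and the 4 groups run along the x axis with the Gna11 ko at the left. In the 9 falls all 3 Gna11 ko arrays lie below the 9 others, and for Kcnj13 they lie above them at 12.21 to 12.38.

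The fall of greatest size was that of Ighm, the heavy chain of immunoglobulin M. It read 8.91, 8.40 and 4.93 in the Gna11 ko arrays against 11.21 to 13.05 in the 9 others, and replicate 3 stood far below replicates 1 and 2. The difference was -4.76 ± 0.718 (SE, adjusted p = 0.00938). Ighm had 10 further probe sets, of which 7 had differences of -2.35 to -1.62 and none passed, while the other 3 were dim and at -0.04 to 0.44. Jchain, which joins immunoglobulin M units, read 5.59, 5.09 and 5.84 against 6.20 to 10.19 (difference -2.70 ± 0.66, adjusted p = 0.0476), and it was called in 2 of the 12 fits that left out 1 array. Fcer2a, the low-affinity receptor for immunoglobulin E, had a difference of -1.29, which turned on high Gnaq/Ga11 ko arrays. It read 5.88 to 7.11 in the Gna11 ko, 8.72 to 9.43 in the Gnaq/Ga11 ko and 6.63 to 7.39 in the Gna12 ko and Gna12/Ga13 ko. The other 8 of 11 B and plasma cell markers were not called, Cd79a and Cd79b among them at 0.40 and 0.42, and the median over the 11 was -0.22.

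Among macrophage and monocyte markers 12 of 18 fell, 0 rose and 6 were not called. Their median difference was -1.42, against 0.05 over all genes, of which 2.50% were called lower. Aif1, an actin-binding protein of macrophages, read 7.61, 6.24 and 5.60 in the Gna11 ko arrays against 8.23 to 10.32 in the others (difference -3.08 ± 0.476, adjusted p = 0.0111). C1qc, a chain of complement component C1q, read 6.96, 5.44 and 6.14 against 6.59 to 10.02, and here replicate 1 of the Gna12/Ga13 ko, at 6.59, lay inside the Gna11 ko range (difference -2.46 ± 0.555). The Fc receptor gene Fcgr1 and Adgre1, which encodes the F4/80 antigen, had differences of -1.83 and -1.72, the lipopolysaccharide co-receptor gene Cd14 one of -1.60 and the lysosomal marker gene Cd68 one of -1.48. Of the markers not called, the integrin gene Itgam was at 0.04, Cd163 at -0.07 and the growth factor receptor gene Csf1r at -0.32. C1qa was at -2.21 without passing.

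Of 13 genes of lipid-associated macrophages 7 fell and 0 rose, with a median of -1.12. Ctsk, a collagen-degrading cathepsin, read 5.29, 4.70 and 6.16 against 7.31 to 9.27 (difference -2.82 ± 0.416, adjusted p = 0.00857). The lipoprotein gene Apoc2 was not apart from all others, at 7.54, 6.64 and 8.47 in the Gna11 ko and 7.03 to 9.32 in the Gnaq/Ga11 ko, against 10.06 to 12.34 in the 6 arrays of the other 2 groups. The fatty acid binding protein gene Fabp4 and Gpnmb, a lysosomal glycoprotein, both had differences of -2.15. Of 13 genes of alternatively activated macrophages 3 fell, namely Ccl22, Ccl17 and the mannose receptor gene Mrc1, with a median of -0.61, while Retnla, Chil3 and Arg1 were at -0.05, -0.07 and -0.09. Fscn1, the actin-bundling protein of mature dendritic cells, read 7.56, 3.21 and 6.20 against 7.87 to 10.28 (difference -3.35 ± 0.676, adjusted p = 0.0254), and replicate 2 was far below replicates 1 and 3. Its 3 further probe sets were at 0.01, 0.28 and -0.48, and none passed. Beside Fscn1, Ccr7 and Ccl22, no other of 12 dendritic cell markers fell. Siglech, a lectin of plasmacytoid dendritic cells and microglia, rose, at 7.90, 7.95 and 8.32 against 5.83 to 7.44 (difference 1.31 ± 0.245, adjusted p = 0.0219).

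Of 20 pan-leukocyte markers 7 fell and 13 were not called. All 20 had a negative difference, and the median was -0.87. Their mean was 8.49, 8.13 and 8.76 in replicates 1, 2 and 3 of the Gna11 ko, against 9.14 to 9.17 in the Gnaq/Ga11 ko, 9.32 to 9.86 in the Gna12 ko and 8.87 to 9.69 in the Gna12/Ga13 ko. No Gna11 ko array reached another array, and replicate 1 of the Gna12/Ga13 ko, at 8.87, was the nearest. Lcp1, an actin-bundling protein of leukocytes, read 8.30, 7.57 and 9.86 against 10.08 to 11.06, and Itgb2, the beta chain of leukocyte integrins, read 7.49, 6.93 and 7.87 against 8.58 to 9.80. Ptprc, which encodes CD45, was at -0.34 and Tyrobp at -0.14, and neither passed. In bulk RNA, fewer leukocytes and less leukocyte RNA per cell cannot be told apart.

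The mean of the macrophage list was 7.84, 7.25 and 7.96 in the Gna11 ko against 8.19 to 9.43 in the 9 others, and the ranges of the dendritic cell list (6.23 to 6.52 against 6.69 to 7.51), the B and plasma cell list (6.78 to 7.16 against 7.27 to 8.55) and the alternatively activated macrophage list (7.07 to 7.47 against 7.50 to 8.37) did not overlap either. In the dendritic and the B and plasma cell lists a few large falls carried the mean, such as Fscn1 at -3.35 and Ighm at -4.76. The median differences of those lists were -0.16 and -0.22, and 4 of 12 and 5 of 11 members had a positive difference. The neutrophil list overlapped, at 6.06 to 6.47 against 6.36 to 8.31, and 1 of 10 members, the collagenase gene Mmp8, fell (4.42, 4.0 and 4.32 against 6.0 to 8.54). The T and natural killer cell list was at 6.57 to 6.70, inside the 6.21 to 7.16 of the others, with 1 of 13 called, the adhesion receptor gene Cd2 at -1.24. Of 13 eosinophil and mast cell genes the mast cell proteases Cma1 and Mcpt4 rose, by 2.20 and 0.34, though Mcpt4 read 3.70 to 3.92 against 3.28 to 3.50, below the median level of 5.101 on every array, and the ribonuclease gene Rnase2a fell by 2.89 on the log2 scale. For Cma1 the Gnaq/Ga11 ko arrays were high as well, with a difference of 0.31 against them alone. For Rnase2a the Gnaq/Ga11 ko arrays alone stood far above all others, with a difference of -6.16 against them. Cma1 read 9.03, 7.89 and 7.21 in the Gna11 ko and 6.62 to 8.32 in the Gnaq/Ga11 ko against 3.87 to 6.05 in the other 6 arrays. Rnase2a read 4.09, 3.77 and 3.72 against 9.44 to 11.11 in the Gnaq/Ga11 ko and 3.54 to 6.83 in the 6 others.

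**Figure D3:**
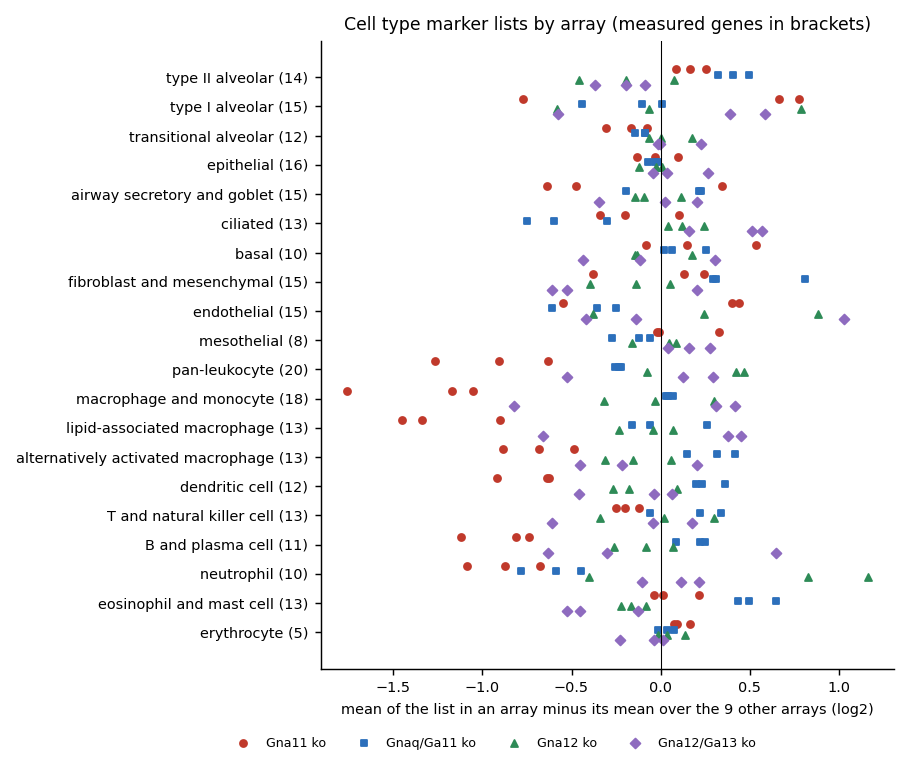
The x axis gives the mean of a marker list in an array minus its mean over the 9 arrays that are not Gna11 ko (log2), and each row is 1 list with the number of measured genes in brackets. Each point is 1 array. The Gna11 ko arrays lie lowest in the pan-leukocyte, macrophage, dendritic and B and plasma cell rows, are spread wide in the type I and endothelial rows, and run over 8.49 to 8.72 in mean level in the epithelial row, where the others run over 8.50 to 8.89. In the dendritic and the B and plasma cell rows a few large falls carry the mean, and the median differences are -0.16 and -0.22.

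Of 9 class II genes 5 fell and 4 were not called, and all 9 had a negative difference, with a median of -0.76. H2-DMa, which loads peptides onto class II molecules, read 8.88, 9.24 and 8.92 in the Gna11 ko arrays against 9.64 to 10.88 in the others (difference -1.46 ± 0.189, adjusted p = 0.00527). H2-Aa read 9.96, 11.54 and 10.06 against 11.47 to 12.14, so that replicate 2 lay inside the range of the others. H2-Ab1 read 11.99, 12.38 and 11.94 against 12.71 to 12.99, and the invariant chain gene Cd74 had a difference of -0.43. The transactivator gene Ciita was at -0.14 and did not pass. Of 13 class I presentation genes 3 fell, which were H2-K1, the immunoproteasome gene Psmb8 at -1.19 and the class I transactivator gene Nlrc5 at -1.65, with a median of -0.23.

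Of 20 interferon-stimulated genes 6 fell, 0 rose and 14 were not called, with a median of -0.53. Mx1, a GTPase that blocks viruses, read 6.13, 5.08 and 5.39 against 6.62 to 7.45 (difference -1.47 ± 0.201, adjusted p = 0.00711). Oas1a, an oligoadenylate synthetase, read 10.55, 10.97 and 10.30 against 11.23 to 12.73 (difference -1.30 ± 0.193, adjusted p = 0.00858). Rsad2, which encodes viperin, was at -1.05 (adjusted p = 0.00409), Oasl1 at -1.47, Zbp1 at -1.33 and Oas2 at -1.16. Ifit1, at -0.91, did not pass, and Ifit2, Ifit3 and Ifih1 were at 0.12, -0.09 and 0.05. The list mean was 7.12 to 7.36 in the Gna11 ko, below the 7.59 to 8.61 of the 9 others.

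The promoters of the class II and interferon groups carry well-known elements, and they are shown for the called members in which a search found one. The class II genes were searched for the Y box, CTGATTGG or CCAATCAG on the other strand, and the interferon-stimulated genes for the core of the interferon-stimulated response element, which is GAAA, any 2 bases and GAAA again, on either strand. The windows run from 250 bases before to 50 bases after the gene start and come from RefSeq, build GRCm38.p6, and capitals mark the matches. For class II, 2 of the 3 called members with an entry held the Y box (H2-Aa and H2-Eb1, not H2-DMa), 3 of 6 measured members with an entry did, and 4.10% of all 32851 promoters did. Of the called members H2-Ab1 and Cd74 have no entry. For the interferon group the element stood in 2 of 3 called members (Oas1a and Rsad2, not Oasl1), in 10 of 15 measured members with an entry and in 3.44% of all promoters. The called members Oas2, Mx1 and Zbp1 have no entry. Each motif was searched in its own list. A match is a description of these letters and no measure of binding, and a missing match says only that the letters are not in the window. H2-Aa lies on the minus strand at chr17:34287774-34288073 and H2-Eb1 on the plus strand at chr17:34305617-34305916. Oas1a lies on the minus strand at chr5:120907476-120907775, where 2 matches overlap, and Rsad2 on the minus strand at chr12:26456403-26456702.
H2-Aa: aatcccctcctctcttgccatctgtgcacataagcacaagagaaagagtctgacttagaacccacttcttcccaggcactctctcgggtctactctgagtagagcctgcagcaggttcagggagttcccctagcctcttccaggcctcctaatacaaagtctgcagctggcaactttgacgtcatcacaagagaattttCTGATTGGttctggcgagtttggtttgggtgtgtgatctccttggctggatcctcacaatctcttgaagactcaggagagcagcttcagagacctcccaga
H2-Eb1: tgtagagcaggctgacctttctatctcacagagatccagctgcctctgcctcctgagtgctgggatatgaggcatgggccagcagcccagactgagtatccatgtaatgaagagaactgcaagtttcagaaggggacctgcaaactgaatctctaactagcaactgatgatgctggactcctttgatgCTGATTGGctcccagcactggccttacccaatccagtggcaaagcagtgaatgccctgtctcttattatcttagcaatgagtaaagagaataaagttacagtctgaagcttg
Oas1a: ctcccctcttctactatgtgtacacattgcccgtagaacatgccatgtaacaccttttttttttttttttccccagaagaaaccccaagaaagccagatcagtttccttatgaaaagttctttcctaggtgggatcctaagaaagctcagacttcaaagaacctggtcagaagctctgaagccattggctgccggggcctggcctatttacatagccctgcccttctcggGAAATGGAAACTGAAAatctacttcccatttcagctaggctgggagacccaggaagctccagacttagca
Rsad2: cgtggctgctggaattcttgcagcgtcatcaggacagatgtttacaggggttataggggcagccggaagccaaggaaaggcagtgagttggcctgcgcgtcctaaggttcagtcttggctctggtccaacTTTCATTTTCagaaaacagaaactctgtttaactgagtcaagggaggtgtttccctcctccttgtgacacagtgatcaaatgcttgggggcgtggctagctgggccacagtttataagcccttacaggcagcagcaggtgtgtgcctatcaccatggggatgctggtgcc

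Of 24 chemokine and cytokine genes that epithelium can make, 4 fell and 0 rose, with a median of -0.22. Beside Ccl17 and Ccl22 these were Ccl8, which attracts monocytes, and Cxcl2, which attracts neutrophils. Ccl8 read 8.58, 6.97 and 8.11, against 8.88 in replicate 1 of the Gna12/Ga13 ko and at least 10.08 in the 8 others (difference -3.07 ± 0.52, adjusted p = 0.0164). Cxcl2 was at 7.40 to 8.04 in the Gna11 ko, at 7.64 to 8.14 in the Gnaq/Ga11 ko and at 8.92 to 9.96 in the other 6 arrays. Il10, an anti-inflammatory cytokine outside that list, read 5.49, 4.74 and 5.55 against 5.67 to 9.17 (difference -2.39 ± 0.38, adjusted p = 0.013), with 5.67 to 7.29 in the Gnaq/Ga11 ko. The epithelial chemokine genes Cxcl15, Cxcl5 and Ccl20, at 0.01, 0.05 and 0.13, were not called.

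Of 18 metalloproteinase and inhibitor genes 7 fell and 0 rose, with a median of -0.46. Mmp19 read 4.24, 4.30 and 4.90 against 5.16 to 7.74, and Timp1, an inhibitor of metalloproteinases, read 5.81, 5.96 and 6.59 against 9.38 to 9.76 in the Gnaq/Ga11 ko and 5.62 to 7.85 in the other 6 arrays. The sheddase genes Adam8 and Adam17 were at -1.30 and -1.16, Mmp12 at -1.12, Mmp14 at -1.08 and the secreted protease inhibitor gene Slpi at -0.55. Of 13 cathepsin and cystatin genes 7 fell and 0 rose, with a median of -0.39. Cstb, an inhibitor of cathepsins, read 8.22, 8.14 and 8.13 against 9.03 to 10.30 (difference -1.51 ± 0.182, adjusted p = 0.00362). The cathepsin genes Ctss and Ctsd were at -1.06 and -0.85, while Ctsh, a cathepsin of type II cells, was at -0.09. Fn1, the matrix protein fibronectin, read 5.65, 6.39 and 6.54 against 7.29 to 8.88 (difference -2.23 ± 0.336, adjusted p = 0.00938), and the other 14 of 15 basement membrane genes were not called.

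Of 18 targets of NRF2, the factor that switches on antioxidant genes, 6 fell, 0 rose and 12 were not called, with a median of -0.39. The low level was shared with the Gnaq/Ga11 ko, and against that group alone the median was -0.11. The list mean was 8.80 to 9.19 in the Gna11 ko, 8.97 to 9.09 in the Gnaq/Ga11 ko and 9.48 to 10.08 in the other 6 arrays. Slc7a11, which imports cystine for glutathione, read 4.15, 3.63 and 6.39 against 5.70 to 8.92 (difference -2.75 ± 0.525, adjusted p = 0.0226), and replicate 3 lay inside the range of the Gnaq/Ga11 ko. Both subunits of glutamate cysteine ligase were called, Gclc at -1.31 and Gclm at -0.68. Against the Gnaq/Ga11 ko alone Gclc was at -0.35 and Gclm at 0.13. The widely used NRF2 target Nqo1 was at -0.25 and Txnrd1 at -0.71, without passing. Of 20 glutathione transferase genes Gstm3, Gstm2 and Gstk1 rose, by 1.10, 0.51 and 0.42, and Gstm4 fell by 0.84 on the log2 scale. The rise of Gstm2 turned on low Gnaq/Ga11 ko arrays. It was 1.31 against that group alone, but 0.19 against the Gna12 ko and 0.02 against the Gna12/Ga13 ko. Gstm3 was at 0.47 against the Gna12/Ga13 ko alone. Gstk1 read 12.39, 12.30 and 12.32 against 11.76 to 11.98, so its groups did not overlap. Members of the Gstm family are alike in sequence, and a probe set can take up signal of a relative.

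Other metabolic genes rose by amounts that turned wholly or in part on the Gnaq/Ga11 ko. Aox3, an aldehyde oxidase, read 8.22, 8.17 and 8.20 against 6.17 to 6.41 in the Gnaq/Ga11 ko and 7.47 to 8.01 in the other 6 arrays (difference 0.97 ± 0.158, adjusted p = 0.0135). Its Gna11 ko arrays thus lay above all 9 others. The difference was 1.88 against the Gnaq/Ga11 ko, 0.48 against the Gna12 ko and 0.54 against the Gna12/Ga13 ko. Pon1, a paraoxonase, read 10.98, 11.29 and 11.18 against 8.86 to 9.24 in the Gnaq/Ga11 ko and 10.65 to 11.55 in the other 6, and its difference of 0.73 was -0.16 against the Gna12/Ga13 ko alone. Fmo2, the flavin monooxygenase of lung, read 8.59, 9.0 and 8.96, against 6.44 to 7.12 in the Gnaq/Ga11 ko and 8.13 to 8.67 in the 6 others. The reverse held for Gpam, which starts triglyceride and phospholipid synthesis: 10.70, 10.48 and 10.39 in the Gna11 ko against 10.72 to 10.76 in the Gnaq/Ga11 ko and 8.84 to 9.72 in the 6 others, so that its difference of 0.71 was -0.21 against the Gnaq/Ga11 ko alone. None of the 4 passed the test against each group. The cholesterol, mitosis and DNA replication lists, of 14, 18 and 18 genes, held no called gene.

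The 12 largest rises among the genes whose arrays did not overlap came from several families. Klk1b27 and Klk1 are tissue kallikreins, serine proteases of gland and epithelial secretions. Klk1b27 read 6.74, 7.50 and 6.79 in the Gna11 ko arrays against 3.94 to 5.92 in the 9 others, with the Gnaq/Ga11 ko at 4.35 to 5.92 and the rest at 3.94 to 4.89 (difference 2.30 ± 0.29, adjusted p = 0.0047). Klk1 read 10.21, 10.67 and 10.63 in the Gna11 ko and 9.53, 10.19 and 10.09 in the Gnaq/Ga11 ko against 6.17 to 8.68 in the 6 others (difference 2.01 ± 0.324). The kallikrein probe sets can take up related family members. A second Klk1 probe set had the same difference, 2.01, and 2 dimmer ones had 0.51 and 0.14.

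Gzmc and Gzmb are granzymes, proteases of cytotoxic lymphocytes that are also found in mast cells. Gzmc read 8.68, 8.0 and 9.52 against 5.81 to 7.58 (difference 2.02 ± 0.358, adjusted p = 0.0195), and Gzmb read 8.19, 7.80 and 8.52 against 5.83 to 7.18 (difference 1.45 ± 0.28, adjusted p = 0.0226). Both lay clear of all 9 others in each replicate. Of the 13 T and natural killer cell markers 0 were called higher, 9 had a negative difference and 4 a positive one. The median over the 13 was -0.18, and 1 of them, Cd2, was called lower. Which cells gave the granzyme signal was not tested. Ptgfr, the Gq-coupled receptor of prostaglandin F2 alpha, read 7.09, 6.71 and 5.34 against 4.18 to 4.78 in the 9 others, where it was below the median level (difference 1.97 ± 0.278, adjusted p = 0.00801). Its 4 further probe sets were dim and had differences of 0.00 to 0.26.

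Rtn4rl1, a Nogo receptor relative, read 7.88, 6.85 and 6.24 against 4.96 to 5.41 (difference 1.88 ± 0.257, adjusted p = 0.00711). Rab17, a small GTPase of epithelial transcytosis, read 9.27, 9.05 and 10.53 against 6.61 to 8.90, and Wfdc12, a secreted antimicrobial protease inhibitor, read 8.38, 9.33 and 8.78 against 5.99 to 7.65. Cyp11a1, which makes pregnenolone from cholesterol, read 8.50, 7.68 and 7.81 against 5.79 to 7.23. All 4 were clear of the other arrays, but none passed the test against each group, where their adjusted p-values ran from 0.138 for Rtn4rl1 to 0.893 for Cyp11a1. Frat1, an inhibitor of glycogen synthase kinase 3, the microRNA host gene Mir99ahg and Dzank1 completed the 12, with differences of 1.37, 1.42 and 1.41.

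**Figure D4:**
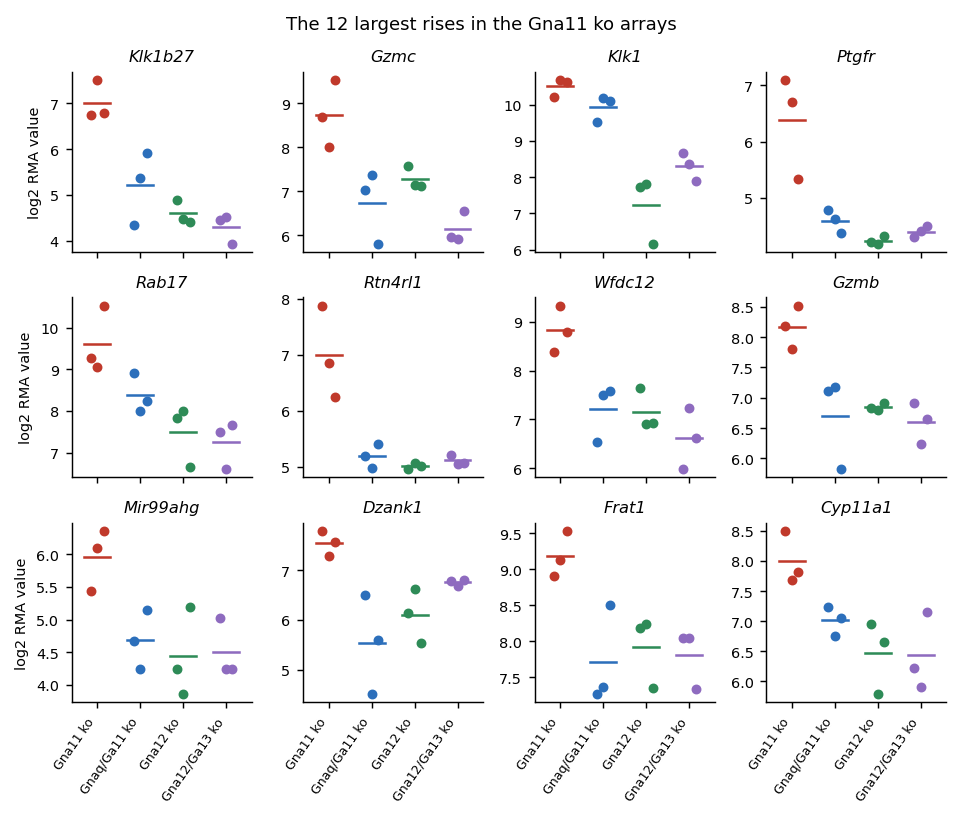
The 12 named genes with the largest rises among called genes without overlap, ordered by size along the rows, with a point for each array (log2 RMA value on the y axis, a scale of its own for each gene), a bar for each group mean and the Gna11 ko at the left. All 3 Gna11 ko arrays lie above the 9 others in each panel, and for Klk1 the Gnaq/Ga11 ko arrays, at 9.53 to 10.19, lie just under them.

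Of 70 genes on the lists of G protein alpha subunits, their regulators, Gq/11-coupled receptors and phospholipase C with calcium signalling, 3 were called (4.29%), near the 4.0% of all genes. Of 15 G protein alpha subunit genes, Gnai2, a subunit that inhibits adenylyl cyclase and is abundant in leukocytes, was called. It read 10.00, 9.87 and 10.23 against 10.57 to 11.09 (difference -0.83 ± 0.106, adjusted p = 0.0047). Of 20 Gq/11-coupled and protease-activated receptor genes Ptgfr was called, and of 16 regulators of G protein signalling Rgs1, which is abundant in activated lymphocytes, at -0.85. None of 19 phospholipase C and calcium genes was called, and Plcb1, Plcb2, Plcb3 and Plcb4 were at 0.06, 0.05, 0.07 and 0.08. The SRF and actin list of 19 and the YAP and TAZ target list of 16 held no called gene, and the TGF-beta list of 18 held Tgfbi at -1.07.

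Sdf2l1, a chaperone partner of the endoplasmic reticulum, fell with 1 other of 18 unfolded protein response genes, Edem1, and read 5.50, 4.59 and 5.02 in the Gna11 ko against 5.85 to 7.91 in the others (difference -2.24 ± 0.363, adjusted p = 0.0134). Cdkn1a, the cell cycle inhibitor p21, was the 1 of 13 p53 genes called, at 10.56, 9.54 and 10.72 against 10.95 to 11.54. Anxa1, a calcium-dependent membrane binder, read 7.61, 7.05 and 8.13 against 8.29 to 9.59 and was called with Lgals3 among 12 transitional alveolar markers, whose median was -0.03. The keratin genes Krt8, Krt18 and Krt19 of that list were at 0.04, -0.00 and 0.03. Ptgds, which makes prostaglandin D2, rose by 2.02, but it read 10.28, 8.90 and 9.35 in the Gna11 ko and 8.65 to 10.41 in the Gnaq/Ga11 ko against 5.68 to 8.13 in the 6 others. Vim, an intermediate filament of mesenchymal cells and leukocytes, was the 1 of 15 fibroblast markers called, at -1.01, while Col1a1 and Pdgfra were at -0.24 and 0.35. No airway secretory, ciliated, basal, endothelial, mesothelial or erythrocyte marker was called, and the median differences of these lists ran from -0.13 to 0.20.

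RNA quality was read from control probe sets that lie at the 3' and 5' ends of the same transcript. A larger 3' minus 5' difference goes with shorter amplified RNA. For Gapdh it was 4.03, 3.61 and 3.46 in the Gna11 ko arrays, against 3.01 to 3.26 in the Gnaq/Ga11 ko, 2.67 to 3.25 in the Gna12 ko and 2.99 to 3.33 in the Gna12/Ga13 ko. The 3 Gna11 ko arrays lay above all 9 others, by 0.61 on average (exact two-sided permutation test, p = 0.00909, the smallest that 3 arrays against 9 allow, adjusted p = 0.0455 over 5 control transcripts). That Gapdh differed in these data was known before the test, so its p-values describe the separation and are no new evidence for it. The Actb controls did not show it, at 3.31, 3.02 and 3.35 against 2.75 to 3.38 (difference 0.14, exact permutation p = 0.336). For pyruvate carboxylase the difference ran the other way, at 5.29, 5.15 and 5.73 against 5.63 to 5.91 (difference -0.37, exact permutation p = 0.0364, adjusted p = 0.0909). For the transferrin receptor and 18S controls it was -0.15 and -0.02 (exact permutation p = 0.764 and 0.991). The 3' probe set of 18S ribosomal RNA read 11.46 to 11.68 in the Gna11 ko arrays, above the 10.56 to 11.18 of the others. The bacterial spike-in bioB 3' read 10.53 to 10.74 against 10.31 to 10.47, also above them. Another spike-in, bioC 3', overlapped, at 11.44 to 11.72 against 11.27 to 11.50. These last 3 probe sets were picked from 64 controls, and how many of the 64 lay outside the range was not counted. Of all genes 5.33% did.

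The leukocyte mean and the Gapdh difference thus separated the Gna11 ko arrays from all others, as the genotype does, so their parts and that of the genotype cannot be told apart in these arrays. With the pan-leukocyte mean of each array as a covariate no gene was called by limma, with 1091 at an unadjusted p under 0.05, and with the Gapdh difference as a covariate none was called either, with 1572. Over the 96 called genes that were named by rule, the differences were 0.665 times as large with the leukocyte covariate and 0.79 times with the Gapdh covariate, in the median, and their SEs were 1.79 and 1.67 times as large. The sign was kept by 95 and 96 of the 96. With the Actb difference, a covariate chosen after seeing the data, 494 genes were called. With Eif2s3y as the covariate 588 were.

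**Figure D5:**
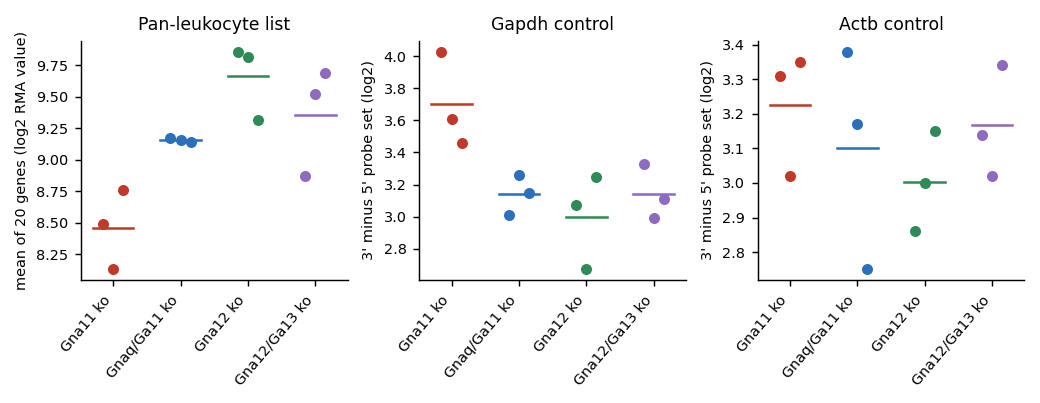
The panels give, for each array, the mean of 20 pan-leukocyte genes (log2 RMA value) and the difference of the 3' over the 5' probe set for Gapdh and for Actb (log2), with group means as bars and the Gna11 ko at the left. The Gna11 ko arrays are lowest in the first panel, at 8.13 to 8.76, highest in the second, at 3.46 to 4.03, and among the others in the third.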

How the data were processed

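RNA of 12 samples of cultured type II alveolar cells was measured on Affymetrix mouse arrays. The authors deposited log2 values: the submitters' processing notes name RMA, and log2 is the reading used here. The base is not stated and was inferred from RMA and the range of 2.13 to 14.1. Array software and annotation versions are not stated in those sources. Groups come from the genotype labels.

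Of 45101 probe sets, 64 were controls, 34945 named 1 gene, 932 several and 9160 none. Symbols were updated through RefSeq for 34741 probe sets, and 204 kept the platform's. Each of 18193 genes was represented by its probe set of highest mean. limma 3.58.1 (R 4.3.3) fitted 1 mean per group, with eBayes (trend in mean level, 8 residual and 3.19 prior df), Benjamini-Hochberg adjustment over all genes and calls at 0.05. The test against each group took the largest of 3 p-values where the signs agreed. Steps were checked on simulated data. Control differences were tested by exact permutation (220 splits).

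The comparison, its 54 gene lists (893 entries, 827 measured, 3 through an older symbol) and the tests were chosen with earlier results of these data known. Lists are described, not tested. Genes named are the targeted genes, the 12 largest rises and falls among called genes without overlap, at or above the level of 5.101 and with no clone name, up to 10 per direction that differ from each group, and up to 4 called members per list; where a list had none called, its 2 brightest members. Further list members are given as values of a list. Alternatives were the replicate block, the prior, level filters, other probe set rules, array weights, quantile normalization, covariates, single groups and leaving out each array.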

Additional observations from a re-analysis of the deposited data

How the results depend on the processing

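The count of 728 genes was 264 with the 9 other arrays as 1 group, 285 with array quality weights, 335 against the Gnaq/Ga11 ko alone, and 0 with the pan-leukocyte mean or the Gapdh difference as a covariate, and 159 to 932 as single arrays were left out. Under the other 11 alternatives it lay between 494 and 838, within 1.5 times. The count of 11 genes against each group was 3 with the Actb difference, Eif2s3y or every probe set, 0 with the leukocyte or Gapdh covariate, 6 with array weights or the mean of the probe sets, 4 without the intensity trend, 7 with a robust prior, and 1 to 25 as single arrays were left out. The count of 970 genes outside the range was 1524 over every probe set and 1010 to 2491 without single arrays, where fewer arrays allow more such genes by construction. The Gapdh difference ran over 0.44 to 0.73, and its unadjusted exact permutation p was at most 0.0364 under each alternative run. Signs turned for Tgfbi with the leukocyte covariate (0.10), for Pon1 against the Gna12/Ga13 ko alone (-0.16), and against the Gnaq/Ga11 ko alone for Gclm (0.13) and Gpam (-0.21), and the cause was not tested.

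With the replicate block the counts were 633 and 7, of which 536 and 6 were shared with the fit without it. Of 18 pairs of arrays with the same number, the deviations from the group means correlated at -0.04 to 0.27, and 6 were over 0.1. All 6 lay among replicates 2 or among replicates 3 of the Gna11 ko, Gna12 ko and Gna12/Ga13 ko. In each of these groups replicate 2 was also the array low for Eif2s3y. The main fit does not read the numbers as pairs, and whether they mark pairs was not tested. Of the 12 arrays 9 correlated best with an array of their own number, a hint from the data only. The number of arrays, 3 per group, limits what can be called.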

Other observations

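Some called genes were neighbours on a chromosome, a pattern noticed after the values were seen and given without a test. In the RefSeq order of GRCm38.p6, 28 runs of at least 2 adjacent measured genes were called in the same direction, 18 lower and 10 higher, with 58 genes in all. That is 58 of the 728 called genes, and over all genes 2.50% were called lower and 1.51% higher. Some such runs arise from these shares alone, and how many was not worked out, so the count is no measure of clustering. The longest was the class II cluster of chromosome 17, with H2-Ab1, H2-Aa, H2-Eb1 and H2-Eb2 lower. The cathepsin genes Ctsk and Ctss, the complement genes C1qb and C1qc, and Cd177 beside Ceacam10 were lower in pairs. Cd177, a neutrophil surface protein, read 6.22, 6.69 and 8.20 in the Gna11 ko against 8.11 to 10.19 in the others. Gzmc and Gzmb on chromosome 14 were higher as neighbours, as were Gstm3 and Gstm2, and Frat1 and Frat2. Frat2 read 8.74, 8.99 and 8.72 against 7.55 to 8.30. The share of genes called lower ran over 1.29% on the X chromosome to 3.27% on chromosome 19.

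Dbp, a transcription factor driven by the circadian clock, was noticed among the rises. It read 11.43, 11.47 and 11.44 in the Gna11 ko and 10.97 to 11.12 in the Gnaq/Ga11 ko against 9.49 to 10.45 in the 6 others (difference 1.08 ± 0.177, adjusted p = 0.0136). Of 16 clock genes it was the 1 called, and the median over the 16 was 0.21. Its neighbour Sphk2, a sphingosine kinase, was called at 1.00 and read 12.01, 12.15 and 11.79 against 11.50 to 11.89 in the Gnaq/Ga11 ko and 10.21 to 11.13 in the 6 others. Of 20 kallikrein genes 3 were called higher, with Klk13 at 0.86 beside Klk1 and Klk1b27, and of 10 granzyme genes 2. Over all genes 1.51% were called higher, and neither family was tested as a set. Klk13 read 9.94 to 10.76 in the Gna11 ko, which overlapped the 10.30 to 10.63 of the Gnaq/Ga11 ko.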
